A study of Mus musculus with 12 samples.

Results

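The respiratory chain of the mitochondrial inner membrane is built mainly from subunits encoded in the nucleus. The genes described here are the 95 protein-coding rows of the deposited table, of 26962 rows and 15456 protein-coding rows in all, whose symbol starts with Nduf, Uqcr, Cox4, Cox5, Cox6, Cox7, Cox8 or Atp5 or is Sdha, Sdhb, Sdhc, Sdhd, Cycs or Cyc1. They comprise 45 genes of complex I, 4 of complex II, 9 of complex III, cytochrome c itself, 19 of complex IV and 17 of complex V, the ATP synthase. A further 17 rows with such a symbol carry a pseudogene biotype and stayed out. The libraries hold RNA of CD8 T cells sorted by binding of an Rpl18 tetramer, 10 days after mice received MC38, a colon carcinoma line of mouse origin. The 4 groups of 3 libraries were KO tumor, WT tumor, KO tumor-draining lymph node (TDLN) and WT TDLN, where KO denotes a CD8-specific knockout of TrIP. TrIP, the product of Pik3ip1, is a membrane protein that inhibits PI3K. Both genotypes received MC38. The labels do not state the Cre driver, the deleted exons, the age of the mice or whether each library is a separate mouse, so p-values measure the spread between libraries, which may be technical.

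Values are normalized counts, with an estimated depth per library, over genes, of 18.3 to 36.9 M reads. The first principal component (63.4% of the variance) separated tumor from TDLN, and WT tumor replicate 3 stood apart on the second (8.20%). Pik3ip1 averaged 108 ± 60.0 normalized counts in KO tumor and 145 ± 30.8 in WT tumor, and 1146 ± 378 in KO TDLN and 845 ± 244 in WT TDLN (SD, n = 3 each). A whole-gene value does not see the loss of single exons, so it does not check the labels, and KO is used as the label of those libraries. All 8 CD8 T-cell markers were detected, with a summed share of 0.381% to 0.405% of the column total in KO tumor, 0.481% to 0.580% in WT tumor, 0.388% to 0.497% in KO TDLN and 0.374% to 0.595% in WT TDLN. Macrophage and monocyte transcripts, which a pure CD8 sort would lack, summed to 0.0973% to 0.216% in KO tumor and 0.0450% to 0.122% in WT tumor, against 0.00097% to 0.00186% in KO TDLN and 0.00132% to 0.00286% in WT TDLN. Of 12 such markers, 12 were higher in tumor in KO and 11 in WT. The 7 tested B-cell markers went the other way, with 7 lower in tumor in KO and 6 in WT. Of 20 cell-cycle genes, 14 were lower in tumor in KO and 20 in WT. Neutrophil markers stayed at or below 0.00046% in every library. Of 7 tested markers of tumor epithelium and stroma, 3 were higher in tumor in KO and 5 in WT. Of 3 dendritic cell markers, 2 were higher in each genotype, and neither of the 2 NK cell markers passed. The part of these transcripts in the differences below was not tested.

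Complex I takes electrons from NADH through a flavin and a chain of iron-sulfur clusters to ubiquinone, and complex II does so from succinate, a step shared with the tricarboxylic acid cycle. Complex III passes the electrons to cytochrome c, complex IV passes them to oxygen, and the ATP synthase uses the resulting proton gradient. Each large complex has a few core subunits, most of which bind the cofactors or form the catalytic site, and many small accessory subunits that stabilise it. The core class of complex III used below includes Uqcrc1 and Uqcrc2, which are named core proteins but bind no redox cofactor. All classes hold nuclear-encoded genes only, so core subunits encoded by mitochondrial DNA are not in them. Activated T cells raise both glycolysis and mitochondrial respiration, and T cells in tumors are known for reduced mitochondrial function.

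Of the 95 genes, 92 passed the filter on low values, a mean of at least 1 CPM, which is 24.9 normalized counts. The exceptions were Cox4i2, Cox7b2 and Ndufa4l2. Cox8a, a small subunit of complex IV, had the highest mean, 22144 normalized counts over the 12 libraries, followed by Atp5j with 16594 and Uqcr10 with 16059. Per kilobase of transcript the order was Cox8a at 40261, Uqcr10 at 37002 and Atp5e at 31687 normalized counts per kilobase. The mean levels per kilobase parted by role. The 4 core subunits of complex III had a median of 1246 per kilobase and its 5 accessory subunits 21223. The 7 core subunits of complex I had a median of 838, the 29 accessory subunits with a transcript length 6531 and the 8 assembly factors 579. Medians were 2348 for complex II, 11021 for complex IV, 5840 for the F1 head of the ATP synthase and 9630 for its membrane part and stalks.

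As a sum, the 95 genes took much the same share of the transcriptome in every group. They held 2.13% ± 0.06 of the column total in KO tumor, 2.04% ± 0.09 in WT tumor, 2.17% ± 0.11 in KO TDLN and 2.11% ± 0.22 in WT TDLN (SD, n = 3 each). WT TDLN replicate 3 was the lowest library at 1.87%. Over the 92 tested genes its median deviation from the mean of all 12 libraries was -0.28 on the log2 scale, against -0.05 to 0.14 in the other 11 libraries. That deviation holds differences between groups as well as between replicates. Beneath the steady sum, the share of complex II was 0.0420% ± 0.0072 in KO tumor and 0.0460% ± 0.0095 in WT tumor, against 0.0664% ± 0.0059 in KO TDLN and 0.0748% ± 0.0031 in WT TDLN. Cytochrome c moved the other way, with 0.0557% ± 0.0030 in KO tumor and 0.0561% ± 0.0034 in WT tumor, against 0.0369% ± 0.0079 in KO TDLN and 0.0367% ± 0.0084 in WT TDLN.

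Tumor was compared with TDLN to ask how tetramer-binding cells differ by site. In bulk libraries, fewer cells with a transcript and less of it per cell cannot be told apart. In KO, 10 of the 92 genes were higher in tumor (10.9%) and 11 lower (12%), where 18.1% of the 16065 genes tested were higher and 12.6% lower (limma, Benjamini-Hochberg adjusted p under 0.05). In WT, 13 were higher (14.1%) and 9 lower (9.78%), where 15.9% of all genes were higher and 10.9% lower. With the values as deposited, the share called was below that of all genes in each genotype and direction. The median log2 difference was -0.08 in KO and 0.02 in WT, beside 0.05 over all genes in each. The differences in KO and WT, which share no library, had a Pearson r of 0.92 over the 92 genes, 80 had the same sign, and none was called in opposite directions. These values were not computed over all genes. Called higher in both genotypes were Atp5md, Cox6c, Cox7b, Cycs, Ndufa1, Ndufa7, Ndufb1 and Uqcrh, which are 80.0% of the higher calls in KO and 61.5% of those in WT. Called lower in both were Ndufa9, Ndufb10, Ndufv1, Sdhb and Uqcrc1, which are 45.5% of the lower calls in KO and 55.6% of those in WT. All 6 tumor libraries stood above all 6 TDLN libraries for 13 genes and below them for 11. That count was not made over all genes, so it is not read as a trait of these genes. Within KO, tumor and TDLN did not overlap for 45 of the 92 genes, beside 8063 of the 16065 tested. Within WT they did not overlap for 36, beside 6389 of all genes.

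These counts depend on the scaling and on single libraries. After rescaling to column totals, 9 were higher and 18 lower in KO, and 6 higher and 18 lower in WT, as the median of all genes moved to -0.02 in KO and -0.11 in WT. The lower calls were then 19.6% of the 92 genes in each genotype, above the 15.0% of all genes in KO and 15.7% in WT, while the higher calls, 9.78% in KO and 6.52% in WT, stayed below the 16.5% and 13.1% of all genes. With quantile normalization the counts were 11 and 15 in KO and 8 and 14 in WT, with medians of all genes of -0.12 and -0.09. The lower calls were then 16.3% in KO and 15.2% in WT, where all genes gave 17.9% and 14.2%. With array weights, 26.1% of the 92 genes were lower in KO, where 19.8% of all genes were. Whether the genes were called lower more often than genes at large therefore depended on the setting. In KO, higher calls numbered 2 without KO tumor replicate 1, 3 without KO TDLN replicate 3, and 4 without KO tumor replicate 2 or either of KO TDLN replicates 1 and 2. These were 2.2%, 3.3% and 4.3% of the respiratory genes, where 12.6% to 14.7% of all genes were higher. Lower calls numbered 7 without KO tumor replicate 1, 4 without KO tumor replicate 2, 5 without KO TDLN replicate 1 and 18 without KO tumor replicate 3. In that order they were 7.7%, 4.3%, 5.4% and 19.6%, beside 7.1%, 8.0%, 6.4% and 13.3% of all genes. In WT, higher calls numbered 6 without WT tumor replicate 1, 3 without WT tumor replicate 4, 2 without WT TDLN replicate 3 and 8 without WT TDLN replicate 4. In that order they were 6.5%, 3.3%, 2.2% and 8.7%, beside 14.0%, 11.5%, 12.5% and 11.5% of all genes. Lower calls numbered 17 without WT tumor replicate 3 and 4 without WT tumor replicate 4 or WT TDLN replicate 4. The 17 were 18.5%, beside 13.3% of all genes, and the 4 were 4.3%, beside 7.3% and 6.7%. No called gene changed sign under any of 22 alternative settings. In KO, the calls of Ndufa9, Uqcrc1, Ndufv1, Ndufaf1 and Cox6a2 held in every setting that kept the gene, as did those of Ndufa9, Cycs and Atp5b in WT. Of these genes, Cox6a2 passed the filter on low values only through its tumor libraries. The other 35 of 43 calls were lost in at least 1 setting. The losses named below are mostly by library. The WT calls of Ndufa2, Ndufa6, Ndufb1, Atp5e and Atp5l were also lost under both rescaling and quantile normalization. Rescaling ended those of Ndufv3 and Cox7b in WT and of Cox7a2 in KO. With only the groups compared, the sole WT calls to hold were those of Cycs, Ndufa1, Uqcrh, Atp5b, Ndufa9 and Uqcrc1.

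**Figure D1:**
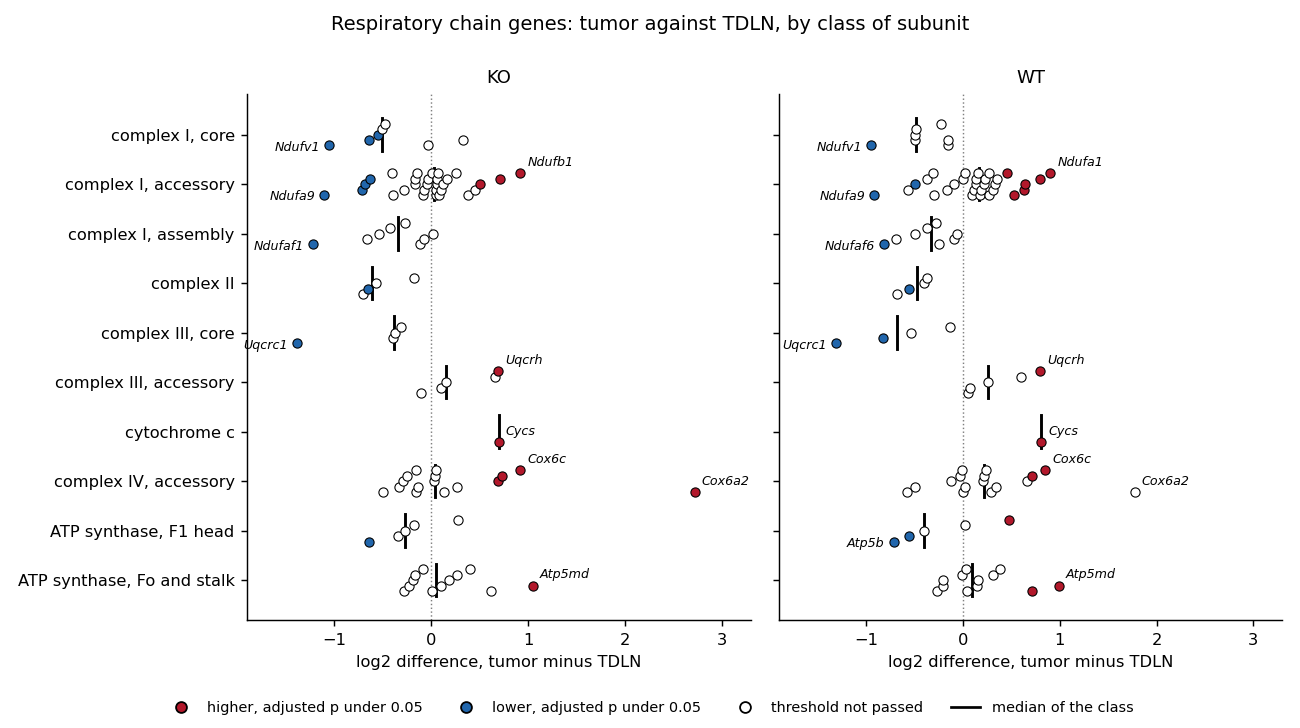
Log2 difference between tumor and TDLN (x axis) of the 92 tested genes, by class of subunit (y axis), in KO (left) and WT (right). Red and blue points passed the adjusted threshold, open points did not, and bars mark class medians. The medians of the nuclear-encoded core subunits of complexes I to III lie left of 0, while Cycs, Uqcrh, Cox6c and Atp5md lie right of it in both panels.

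The counts by class below stand beside the shares of all genes, 18.1% higher and 12.6% lower in KO, and 15.9% and 10.9% in WT. The nuclear-encoded core subunits of complex I were lower in tumor where they passed the test. Ndufv1 (ENSMUSG00000037916), which binds the flavin that accepts electrons from NADH, had 533, 548 and 696 normalized counts in KO tumor and 599.7, 1095 and 559 in WT tumor, against 1407, 1136 and 1211 in KO TDLN and 1282, 1551 and 1403 in WT TDLN. Every tumor library lay below every TDLN library, with WT tumor replicate 3 nearest to them. The log2 difference was -1.05 (SE 0.24, limma adjusted p = 0.00625) in KO and -0.95 (SE 0.24, adjusted p = 0.0118) in WT. Ndufv2, its iron-sulfur partner, fell by 0.65 on the log2 scale in KO (limma adjusted p = 0.0147) and was at -0.48 in WT (adjusted p = 0.0579). Ndufs8, which carries iron-sulfur clusters on the path to ubiquinone, fell by 0.56 in KO (limma adjusted p = 0.035) and was at -0.22 in WT (adjusted p = 0.383). Ndufs1, the largest core subunit, did not pass, at -0.03 in KO and -0.16 in WT. The call of Ndufv2 was lost without KO tumor replicate 2 (adjusted p = 0.0607) or KO TDLN replicate 1 (0.0733), and that of Ndufs8 without any KO library but KO tumor replicate 3 (0.0639 to 0.130). In WT, Ndufv1 had an adjusted p of 0.0516 when only the groups compared were fitted.

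Accessory subunits of complex I went both ways. Of 30 tested, 3 rose and 4 fell in KO, and 6 rose and 2 fell in WT. Ndufa9 (ENSMUSG00000000399), a matrix-arm subunit beside the quinone site, had 744, 806 and 929 normalized counts in KO tumor and 1067, 1062 and 929 in WT tumor, against 2189, 1713 and 1556 in KO TDLN and 1766, 2149 and 1925 in WT TDLN. The tissues did not overlap, and the log2 difference was -1.11 (SE 0.18, limma adjusted p = 0.000693) in KO and -0.92 (SE 0.18, adjusted p = 0.00257) in WT. Ndufb10, a membrane-arm subunit, fell by 0.63 on the log2 scale in KO (limma adjusted p = 0.0111) and by 0.49 in WT (adjusted p = 0.0392). Ndufa10 and Ndufa8 were called in KO, with log2 differences of -0.72 and -0.69 (limma adjusted p = 0.0229 and 0.0248), and stood at -0.56 and -0.37 in WT (adjusted p = 0.0681 and 0.208). The calls of Ndufa10 and Ndufa8 were lost without KO tumor replicate 1, KO tumor replicate 2, KO TDLN replicate 1 or KO TDLN replicate 3 (0.0618 to 0.0939). That of Ndufb10 was lost in KO without KO tumor replicate 2 (0.052) and in WT without any of 8 libraries (0.0519 to 0.13), most of all WT TDLN replicate 4 and WT tumor replicate 4.

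Ndufb1 (ENSMUSG00000113902), a small membrane-arm subunit, had 11402, 10838 and 6649 normalized counts in KO tumor and 8382, 5359.9 and 9574 in WT tumor, against 5124, 5129.9 and 4619 in KO TDLN and 5133, 3162 and 4959.9 in WT TDLN. Its tumor libraries all stood above its TDLN libraries, and the log2 difference was 0.92 (SE 0.26, limma adjusted p = 0.0206) in KO and 0.80 (SE 0.26, adjusted p = 0.0403) in WT. Ndufa1, another small membrane-arm subunit, rose by 0.71 in KO and 0.90 in WT on the log2 scale (limma adjusted p = 0.0344 and 0.0126), and Ndufa7, of the matrix arm, by 0.50 and 0.65 (adjusted p = 0.0316 and 0.0106). In WT, Ndufa2, Ndufa6 and Ndufv3, all of the matrix arm, were called higher too, with log2 differences of 0.46, 0.64 and 0.53 (limma adjusted p = 0.0479, 0.0369 and 0.026), and stood at 0.38, 0.45 and 0.25 in KO (adjusted p = 0.0838, 0.114 and 0.237). The calls of Ndufb1, Ndufa1 and Ndufa7 in KO were lost without any KO library other than KO tumor replicate 3 (adjusted p = 0.0504 to 0.129). In WT, that of Ndufa1 was lost without WT tumor replicate 4 (adjusted p = 0.0544) or WT TDLN replicate 3 (0.0519), and that of Ndufb1 without any WT library but WT tumor replicate 3 and WT TDLN replicate 1 (0.0592 to 0.152) or without any KO TDLN library (0.0524 to 0.056). Those of Ndufa2, Ndufa6 and Ndufv3 were lost without WT tumor replicate 4 (0.112, 0.144 and 0.0798) or WT TDLN replicate 3 (0.151, 0.13 and 0.0839), and without WT tumor replicate 1 for Ndufa2 and Ndufv3 (0.143 and 0.0702). Ndufa2 was also lost without any KO library or WT TDLN replicate 4 (0.0523 to 0.0685), and Ndufa6 without KO TDLN replicate 1, KO TDLN replicate 2 or WT TDLN replicate 4 (0.0514 to 0.057). Rescaling to column totals ended the WT calls of Ndufb1, Ndufa2, Ndufa6 and Ndufv3 as well (limma adjusted p = 0.0807, 0.147, 0.0886 and 0.0796).

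Of the 8 assembly factors of complex I, 1 fell in each genotype and none rose. Of all genes, 12.6% fell in KO and 10.9% in WT, and 18.1% and 15.9% rose. Ndufaf1 (ENSMUSG00000027305), a chaperone of the membrane arm, had 560.0, 326 and 619.7 normalized counts in KO tumor and 937, 577 and 579 in WT tumor, against 1299, 1152 and 1051 in KO TDLN and 1176, 1005 and 1161 in WT TDLN. The tissues did not overlap, but WT tumor replicate 1 came close to WT TDLN. The log2 difference was -1.22 (SE 0.25, limma adjusted p = 0.00378) in KO and -0.69 (adjusted p = 0.0628) in WT. Ndufaf6 was at -0.67 in KO (limma adjusted p = 0.0576) and fell by 0.82 in WT (adjusted p = 0.0281), a call lost without any WT library but WT tumor replicates 1 and 3 (0.0547 to 0.0974).

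All 4 genes of complex II were below 0 in both genotypes, and Sdhb passed the test in each. Sdhb (ENSMUSG00000009863), the iron-sulfur subunit, had 3378, 2889 and 3891 normalized counts in KO tumor and 3961, 4261 and 2972 in WT tumor, against 5927, 5308 and 4711 in KO TDLN and 5457, 5074 and 5813 in WT TDLN. The tissues did not overlap, and the log2 difference was -0.65 (SE 0.17, limma adjusted p = 0.0144) in KO and -0.56 (SE 0.17, adjusted p = 0.0326) in WT. Sdhd, a membrane anchor, stood at -0.70 and -0.67 (limma adjusted p = 0.0576 and 0.0732) and Sdhc, the other anchor, at -0.57 and -0.40 (adjusted p = 0.0919 and 0.244) in KO and WT. Sdha, which binds the flavin and oxidises succinate, was at -0.17 and -0.36 (limma adjusted p = 0.575 and 0.237). The call of Sdhb in KO was lost without KO tumor replicate 2 (adjusted p = 0.0626) or KO TDLN replicate 1 (0.0679). In WT it was lost without WT tumor replicate 4 (0.125), either of WT TDLN replicates 1 (0.0754) and 4 (0.103).

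In complex III, 1 of 4 core subunits fell in KO and 2 in WT, and 1 of 5 accessory subunits rose in each. Uqcrc1 (ENSMUSG00000025651), a core protein on the matrix side, had 1003, 908 and 1532 normalized counts in KO tumor and 1352, 2292 and 768 in WT tumor, against 3721, 2474 and 2832 in KO TDLN and 2705, 4465 and 3139.6 in WT TDLN. Every tumor library lay below every TDLN library, and replicate 3 was the highest of WT in both tissues. The log2 difference was -1.39 (SE 0.35, limma adjusted p = 0.0103) in KO and -1.31 (SE 0.35, adjusted p = 0.0149) in WT. Cyc1, the heme subunit that hands electrons to cytochrome c, was at -0.39 in KO (limma adjusted p = 0.235) and fell by 0.82 in WT (adjusted p = 0.0246). Uqcrc2 was at -0.31 and -0.53, and Uqcrfs1, the Rieske iron-sulfur protein, at -0.38 and -0.14, in KO and WT without passing.

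Uqcrh (ENSMUSG00000063882), the hinge protein between complex III and cytochrome c, had 15716, 13243 and 10479 normalized counts in KO tumor and 11852, 9552 and 15064 in WT tumor, against 8222, 7894 and 7938 in KO TDLN and 7929, 5449 and 7504 in WT TDLN. All tumor libraries were above all TDLN libraries. It rose by 0.69 in KO (SE 0.20, limma adjusted p = 0.023) and 0.80 in WT (SE 0.20, adjusted p = 0.0129) on the log2 scale, and was the sole accessory subunit of complex III to pass. In WT the call of Uqcrc1 was lost without WT tumor replicate 4 (adjusted p = 0.0577) or WT TDLN replicate 3 (0.0641), that of Uqcrh without the same libraries (0.0561 and 0.0508), and that of Cyc1 without any WT library but WT tumor replicate 3 and WT TDLN replicate 1 (0.0571 to 0.0985). In KO that of Uqcrh was lost without any KO library but KO tumor replicate 3 (0.0587 to 0.0997).

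Cycs (ENSMUSG00000063694), cytochrome c itself, was higher in tumor in both genotypes. It had 13847, 14028 and 14938 normalized counts in KO tumor and 14475, 15904 and 14011 in WT tumor, against 9291, 10629.7 and 6899 in KO TDLN and 8454, 6509 and 10862 in WT TDLN. The tumor libraries were tightly grouped and all above the TDLN libraries, which spread more widely. The log2 difference was 0.70 (SE 0.20, limma adjusted p = 0.0187) in KO and 0.81 (SE 0.20, adjusted p = 0.00974) in WT. The call in KO was lost without KO TDLN replicate 3 (adjusted p = 0.0782).

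Of the 16 tested genes of complex IV, 4 rose in KO, Cox6a2 among them, and 2 in WT, and none fell in either. Of all genes tested, 18.1% rose in KO and 15.9% in WT, and 12.6% and 10.9% fell. The counts of complex IV were not tested against these shares. Cox6c (ENSMUSG00000014313), a small transmembrane subunit, had 22153, 19076 and 16691 normalized counts in KO tumor and 19121, 10592 and 19882 in WT tumor, against 10278, 10548 and 9649 in KO TDLN and 10642, 6526 and 9826 in WT TDLN. WT tumor replicate 3 overlapped the TDLN range. Cox6c rose by 0.92 in KO (SE 0.24, limma adjusted p = 0.0141) and 0.85 in WT (SE 0.24, adjusted p = 0.0221) on the log2 scale. Cox7b rose by 0.73 and 0.71 (limma adjusted p = 0.0241 and 0.0294), and Cox7a2, the widely expressed isoform of subunit 7a, by 0.69 in KO (adjusted p = 0.0461), with 0.66 in WT (adjusted p = 0.057). The call of Cox6c was lost without KO tumor replicate 1 in KO (adjusted p = 0.0587) and, in WT, without WT tumor replicate 1 (0.0741), WT tumor replicate 4 (0.0892) or WT TDLN replicate 3 (0.0865). That of Cox7b was lost in KO without any KO library but KO tumor replicate 3 (0.057 to 0.104) and in WT without any WT library but WT tumor replicate 3 and WT TDLN replicate 1 (0.0544 to 0.11), and that of Cox7a2 without the same KO libraries (0.0916 to 0.147) or WT TDLN replicate 1 (0.0526).

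Several subunits of complex IV exist as tissue isoforms. Cox6a2 (ENSMUSG00000030785), the heart and skeletal muscle form of subunit 6a, had 134, 73.6 and 502 normalized counts in KO tumor and 299, 43.7 and 16.9 in WT tumor, against 9.28, 1.10 and 7.68 in KO TDLN and 4.04, 7.31 and 0 in WT TDLN. The tissues did not overlap, but the tumor libraries spread widely, from 16.9 to 502. The log2 difference was 2.72 (SE 0.69, limma adjusted p = 0.0115) in KO and 1.77 (SE 0.69, adjusted p = 0.0768) in WT, on a scale with 1 CPM added, and was 2.03 in KO without KO tumor replicate 3. Per kilobase it held 1.72% of Cox6a1 and Cox6a2 together in KO tumor and 0.847% in WT tumor, against 0.0366% in KO TDLN and 0.0248% in WT TDLN. Itgad, whose annotation overlaps Cox6a2, had 0 to 10.4 normalized counts in the tumor libraries. Cox6a1, the widely expressed form, had 10135 to 13146 in KO tumor and 10588 to 12503 in WT tumor, against 12748 to 15081 in KO TDLN and 11252 to 14147 in WT TDLN, with log2 differences of -0.29 and -0.12 that did not pass.

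In the other isoform pairs the widely expressed form held most of the transcripts per kilobase in every group, but shares differed between tissues. Per kilobase, Cox4i2, the lung form known to respond to hypoxia, made up 0.102% of the Cox4 pair in KO tumor and 0.0285% in WT tumor, against 0 in KO TDLN and 0.0019% in WT TDLN. Its 41.6 normalized counts in KO tumor replicate 3 were its highest value, and that library also held the highest value of Ndufa4l2, 43.0. Ndufa4l2, a hypoxia-responsive relative of Ndufa4, was listed at 0 in the other KO tumor libraries and in all TDLN libraries. Cox6b2, the testis form, held 0.219% of its pair in KO tumor and 0.146% in WT tumor, against 0.311% in KO TDLN and 0.359% in WT TDLN. Cox7a1, the muscle form, held 0.248% and 0.326% of its pair with Cox7a2 in KO and WT tumor, against 0.769% in KO TDLN and 1.02% in WT TDLN. Cox7a2l held 16.1% and 20.1% of its pair with Cox7a2 in KO and WT tumor, against 23.5% in KO TDLN and 25.1% in WT TDLN. Cox4i1, Cox8a and Ndufa4 stayed within 0.29 of 0 on the log2 scale in both genotypes. Cox5b-ps is annotated as protein-coding but is a near copy of Cox5b, so the split of reads between the pair is uncertain.

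Of the 5 genes of the F1 head of the ATP synthase, 1 fell in KO, and 2 fell and 1 rose in WT. Atp5b (ENSMUSG00000025393), the catalytic beta subunit, had 13779.8, 14519 and 12858 normalized counts in KO tumor and 11641, 11825 and 10767 in WT tumor, against 18078, 17894 and 14075 in KO TDLN and 16664, 18746 and 20940.3 in WT TDLN. The gap was wide in WT, while KO tumor replicate 2 overlapped KO TDLN replicate 3. Atp5b fell by 0.71 on the log2 scale in WT (SE 0.14, limma adjusted p = 0.00326) and was at -0.27 in KO (adjusted p = 0.161). Atp5a1, the alpha subunit, fell by 0.55 in WT (limma adjusted p = 0.0153) and was at -0.34 in KO (adjusted p = 0.0933). Atp5c1, the gamma shaft, fell by 0.65 in KO (limma adjusted p = 0.0234) and was at -0.40 in WT (adjusted p = 0.138). Atp5e, the small epsilon subunit, rose by 0.48 in WT (limma adjusted p = 0.0322) and was at 0.27 in KO (adjusted p = 0.181).

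Of the 12 genes of the membrane part and stalks, 1 rose in KO and 2 in WT, and none fell. Atp5md (ENSMUSG00000071528), a small protein of the synthase dimer, had 7039, 5858 and 4061 normalized counts in KO tumor and 4199.9, 3382 and 5952 in WT tumor, against 2741, 2888 and 2361 in KO TDLN and 2682, 1479.7 and 2659.8 in WT TDLN. All tumor libraries were above all TDLN libraries, and the log2 difference was 1.05 (SE 0.28, limma adjusted p = 0.0138) in KO and 0.99 (SE 0.28, adjusted p = 0.0197) in WT. Atp5l, a dimer subunit too, rose by 0.71 in WT (limma adjusted p = 0.0471) and was at 0.62 in KO (adjusted p = 0.0714). The 3 genes for the identical c-ring subunit, Atp5g1, Atp5g2 and Atp5g3, stayed within 0.23 of 0 on the log2 scale. Atp5g3 gave 70.1% to 76.5% of their transcripts per kilobase in KO tumor and 70.4% to 74.6% in WT tumor, against 75.7% to 77.1% in KO TDLN and 75.1% to 77.8% in WT TDLN. The call of Atp5md was lost without KO tumor replicate 1 in KO (adjusted p = 0.0628) and without WT tumor replicate 4 (0.0836) or WT TDLN replicate 3 (0.0787) in WT. Those of Atp5a1 (0.0683 without WT TDLN replicate 4), Atp5c1 (0.0574 to 0.095 without any KO library but KO tumor replicate 3 and KO TDLN replicate 3), Atp5e (0.0798 to 0.101 without WT tumor replicate 1, WT tumor replicate 4 or WT TDLN replicate 3) and Atp5l (0.0607 to 0.176 without any of 8 libraries, WT tumor replicate 4 and WT TDLN replicate 3 the most) were lost as well.

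**Figure D2:**
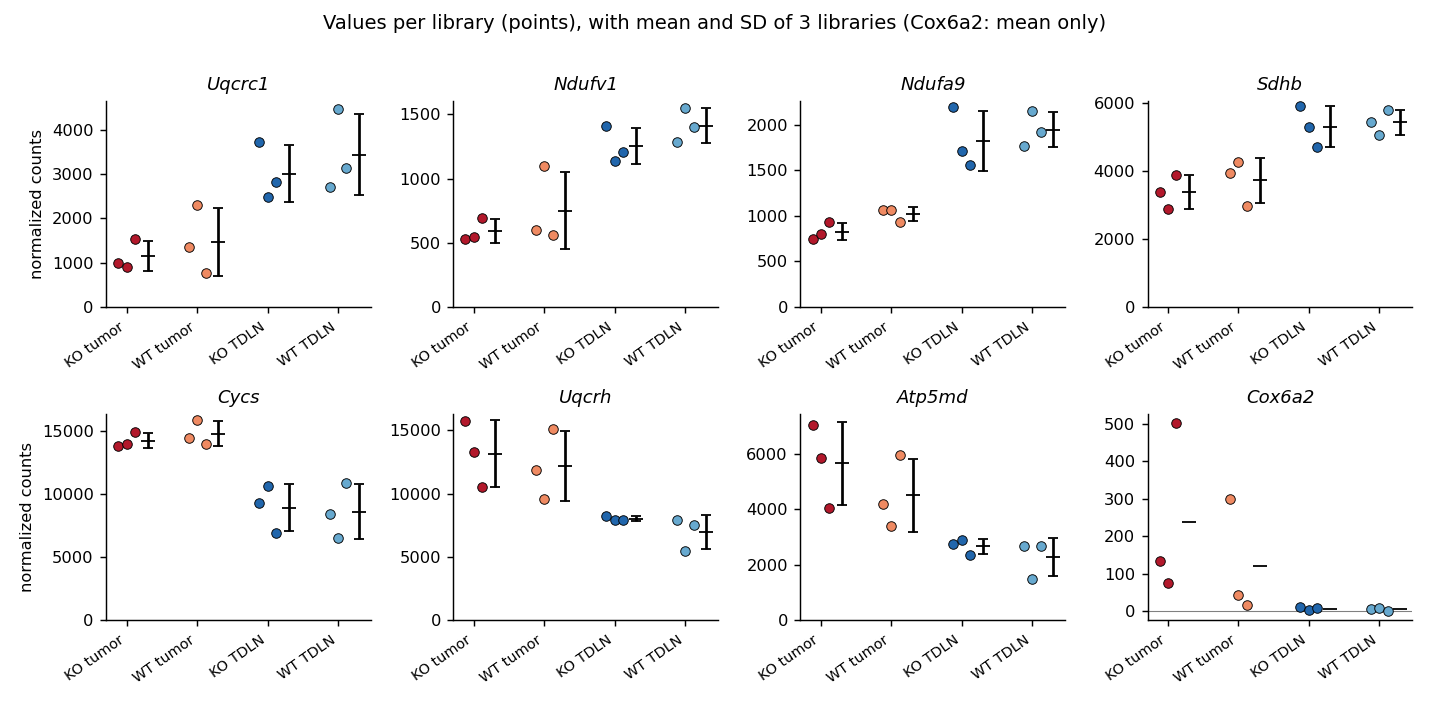
Normalized counts (y axes, linear from 0) of 8 genes in each of the 12 libraries, by group. Points are libraries and the marks beside them the mean with its SD (n = 3), or the mean alone for Cox6a2. Uqcrc1, Ndufv1, Ndufa9 and Sdhb (top row) have every tumor library below every TDLN library, and Cycs, Uqcrh, Atp5md and Cox6a2 (bottom row) every tumor library above.

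Of the 15 nuclear-encoded core subunits of complexes I to III, none rose and 5 fell in KO, with a median log2 difference of -0.51. In WT none rose and 4 fell, with a median of -0.49. The 13 subunits encoded by mitochondrial DNA, which include core subunits of complexes I and III, were all above 0 in both genotypes. Of the 51 accessory subunits of complexes I, III and IV, 8 rose and 4 fell in KO (median 0.04), and 9 rose and 2 fell in WT (median 0.19). Of all genes tested, 18.1% rose and 12.6% fell in KO, and 15.9% rose and 10.9% fell in WT. The classes were set after the values were seen, and their counts were not tested against these shares. In WT no nuclear-encoded core subunit of complexes I to III was above 0, also after rescaling to column totals and after quantile normalization. Accessory subunits do not share a direction that scaling leaves alone, since 16 of the 30 of complex I were above 0 in KO and 22 in WT, but 9 and 15 after rescaling to column totals. A single factor on all values of a library cancels in a difference between its classes, apart from the 1 CPM added before log2. Quantile normalization is not such a factor. The mean log2 level of core minus accessory subunits of complex I was -2.07, -2.02 and -1.84 in KO tumor and -1.97, -1.68 and -2.13 in WT tumor, against -1.55, -1.62 and -1.59 in KO TDLN and -1.50, -1.16 and -1.47 in WT TDLN. The tissues did not overlap, and replicate 3 of WT stood nearest to the core side in both tissues.

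The same difference in complex III averaged -2.51 ± 0.26 in KO tumor and -2.36 ± 0.64 in WT tumor, against -1.60 ± 0.06 in KO TDLN and -1.31 ± 0.47 in WT TDLN (SD, n = 3 each), and WT tumor replicate 3 at -1.67 nearly reached WT TDLN replicate 1 at -1.66. For the F1 head minus the rest of the ATP synthase the means were 0.34 ± 0.18 in KO tumor and 0.50 ± 0.34 in WT tumor, against 0.72 ± 0.04 in KO TDLN and 0.90 ± 0.29 in WT TDLN, with overlap in WT. Complex II minus complex IV gave -0.80 ± 0.16 in KO tumor and -0.60 ± 0.29 in WT tumor, against -0.05 ± 0.09 in KO TDLN and 0.15 ± 0.16 in WT TDLN, without overlap. The mean of complex IV includes Cox6a2, which had 0 to 9.28 normalized counts in the TDLN libraries. These balances were computed after the values of the genes were seen and carry no test.

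**Figure D3:**
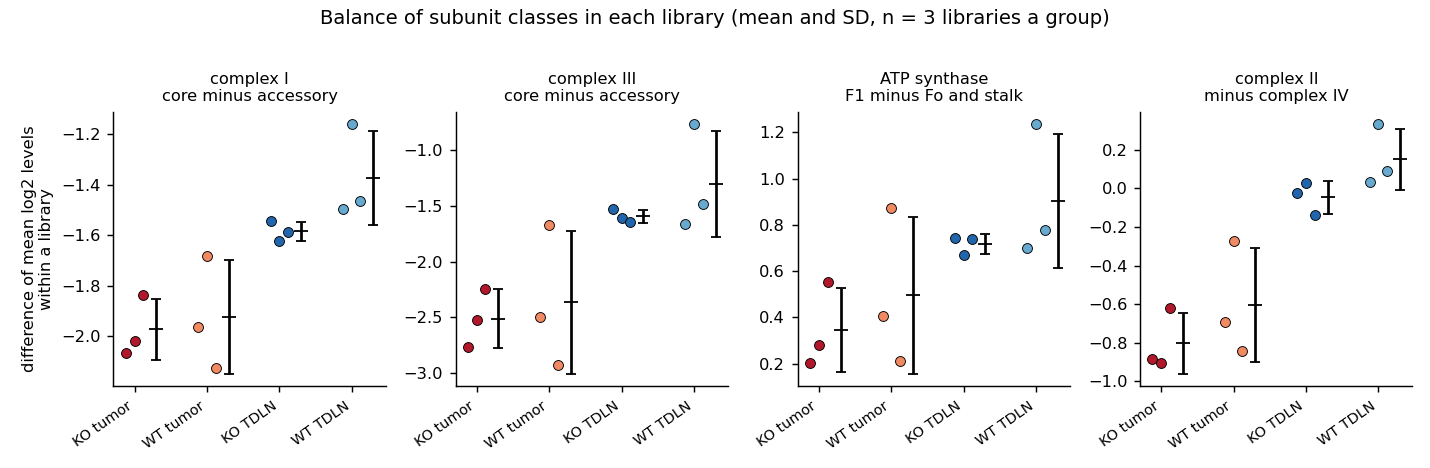
Difference of mean log2 levels between classes of subunits within a library (y axes), for 4 pairs of classes, by group. Points are libraries, with the mean and SD of 3 beside them. The points of complex I lie between -2.13 and -1.68 in the tumor libraries and between -1.62 and -1.16 in the TDLN libraries.

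Transcript length moved with the tissue difference among these genes. Core subunits of complexes I to III have longer transcripts, with a median of 1520 bases, than the accessory subunits, with a median of 614.5 bases. Across the 91 tested genes with a length, Spearman's rho between length and the log2 difference was -0.48 in KO and -0.52 in WT, while across the 11221 other genes tested it was 0.21 in KO and 0.16 in WT. These correlations are across genes of the same libraries and are a description. Of the 30 genes with transcripts under 600 bases, 4 rose and none fell in KO, and 8 rose and none fell in WT, with medians of 0.12 and 0.26. The risers were 13.3% of them in KO and 26.7% in WT. Of the 204 other genes of that length, 15.7% rose and 14.2% fell in KO and 16.7% rose and 12.7% fell in WT, with medians of 0.01 and 0.09. Of the 15 genes from 1000 to under 1500 bases, 1 rose and 5 fell in KO, and 1 rose and 3 fell in WT, with medians of -0.51 and -0.40, where the 1290 other genes of that length had medians of -0.20 and -0.14. The fallers were 33.3% of the 15 in KO and 20.0% in WT, beside 23.1% and 17.1% of the other genes. Cycs, at 3123 bases, was long and higher in tumor. Within the range of lengths that both classes hold, 870.5 to 2447.5 bases, 13 core subunits had a median of -0.56 in KO and -0.50 in WT and a median length of 1363 bases. The 11 accessory subunits in that range had medians of 0.00 and 0.22 and a median length of 1341.5 bases. They spanned -1.11 to 0.73 in KO and -0.92 to 0.71 in WT, with 2 called lower in KO and 1 in WT, and 1 higher in each. The core subunits spanned -1.39 to 0.33 and -1.31 to -0.14, with 5 and 4 called lower and 0 higher. The range was chosen after the values were seen, and the part of length in the class difference was not tested.

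**Figure D4:**
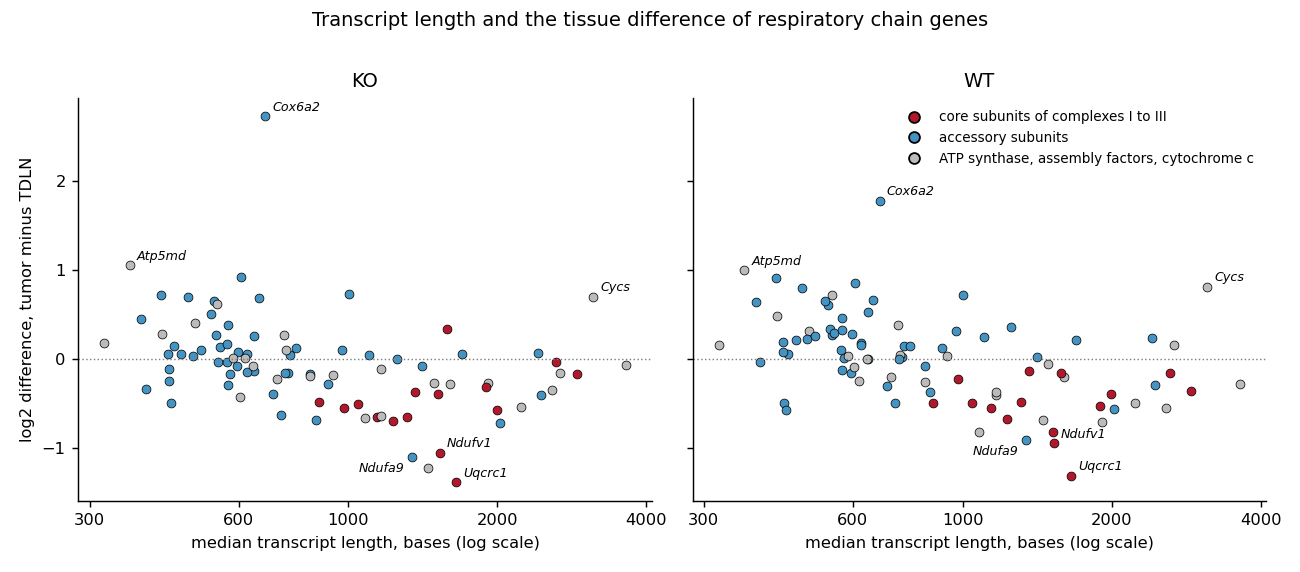
Median transcript length (x axis, log scale, bases) and log2 difference between tumor and TDLN (y axis) of 91 genes in KO (left) and WT (right). Each point is a gene, coloured by class, and short transcripts lie mostly above the line at 0 while the core subunits, at 870.5 bases and longer, lie mostly below it.

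Promoter sequences were read for genes on both sides of this divide, since nuclear respiratory factor 1 (NRF1) and ETS-family factors such as NRF2 are known regulators of the family. RefSeq promoters (GRCm38.p6, 250 bases before to 50 after the annotated start) matched 77 of the 95 genes. The 120 bases before the start are shown for 2 genes called higher in tumor, Cycs and Uqcrh, and 2 called lower, Sdhb in both genotypes and Ndufaf1 in KO. They were picked, after the values were seen, as called genes with a match, and capitals mark the match to the letters GCGCATGC for NRF1 (in Cycs and Sdhb) or CCGGAAG for ETS factors (in Uqcrh and Ndufaf1), on either strand.
Cycs, chr6:50566570-50566689, minus strand: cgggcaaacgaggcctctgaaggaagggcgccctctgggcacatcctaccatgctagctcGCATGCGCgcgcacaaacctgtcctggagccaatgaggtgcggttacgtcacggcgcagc
Uqcrh, chr4:116075071-116075190, minus strand: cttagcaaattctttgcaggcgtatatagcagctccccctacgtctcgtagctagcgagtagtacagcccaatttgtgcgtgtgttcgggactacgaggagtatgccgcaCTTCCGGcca
Sdhb, chr4:140961151-140961270, plus strand: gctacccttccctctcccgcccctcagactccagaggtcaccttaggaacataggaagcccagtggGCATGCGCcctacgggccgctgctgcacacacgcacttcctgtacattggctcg
Ndufaf1, chr2:119662835-119662954, minus strand: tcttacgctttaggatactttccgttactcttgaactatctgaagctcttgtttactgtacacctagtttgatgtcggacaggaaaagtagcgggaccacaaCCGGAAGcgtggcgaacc
The match ends 52 bases before the start in Cycs, 3 in Uqcrh, 46 in Sdhb and 11 in Ndufaf1.

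Over the whole windows of 300 bases, the NRF1 letters stood in 16.9% of the 77 promoters, beside 5.62% of those of 8990 other protein-coding genes tested and 2.80% of all 27025. The shorter letters TGCGCA, which can overlap the NRF1 match, stood in 24.7%, beside 15.1% and 8.06%. The ETS letters stood in 23.4%, beside 19.6% and 9.12%, and the letters AAGATGGC, for YY1, in 13.0%, beside 4.98% and 2.88%. The NRF1 letters stood in 3 of 12 promoters of genes called higher in at least 1 genotype and in 3 of 12 of those called lower, the letters TGCGCA in 2 and 4, the ETS letters in 4 and 3, and the YY1 letters in 0 and 1. These counts were not tested against each other. A match is a description and not a site, and a window without one says only that those letters are absent from it.

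Other genes of mitochondrial respiration were read from lists. Their counts stand beside 18.1% of all genes higher in tumor and 12.6% lower in KO, and 15.9% and 10.9% in WT. They were not tested against these shares. Of the 13 subunits encoded by mitochondrial DNA, 6 rose in KO and 5 in WT, none fell, and all 13 were above 0, with median log2 differences of 0.44 and 0.47. They were led by mt-Nd3 (1.09, limma adjusted p = 0.00526) and mt-Atp8 (0.88, adjusted p = 0.00957) in KO, and by mt-Co2 (0.75, adjusted p = 0.0263) and mt-Atp8 (0.73, adjusted p = 0.0251) in WT. They took 7.20% to 7.80% of the column total in KO tumor and 5.75% to 7.09% in WT tumor, against 5.47% to 6.35% in KO TDLN and 4.27% to 5.93% in WT TDLN. The 18 genes of the tricarboxylic acid cycle had 1 riser and 4 fallers in KO and none and 6 in WT, with medians of -0.36 and -0.38. Suclg1, of succinyl-CoA synthetase, and Idh3g, of isocitrate dehydrogenase, fell by 0.98 and 0.85 in KO (limma adjusted p = 0.00372 and 0.0013), and Fh1, fumarate hydratase, and Idh3a by 0.89 and 0.84 in WT (adjusted p = 0.00357 and 0.00887).

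Among 45 further assembly factors, 5 rose and 9 fell in KO, and 6 rose and 6 fell in WT. Cox17, the copper chaperone of complex IV, had 24798, 24099 and 19169 normalized counts in KO tumor and 21818, 21662 and 22874 in WT tumor, against 11290.3, 11829 and 9961 in KO TDLN and 10195, 8311 and 12626 in WT TDLN. It rose by 1.03 and 1.11 on the log2 scale (limma adjusted p = 0.000749 and 0.000537), with no overlap between the tissues. The factors with the largest differences were Coa4 (-1.25) and Surf1 (-1.24), both of complex IV, in KO (limma adjusted p = 0.00314 and 0.00251), and Hccs, which attaches heme to cytochrome c, in WT (1.37, adjusted p = 0.0017), with 0.92 in KO (adjusted p = 0.0135). Of 15 regulators of respiratory gene transcription, 3 rose and 2 fell in KO and 2 rose and 2 fell in WT. Tfam, which packages and transcribes mitochondrial DNA, had 1167, 1021 and 1072 normalized counts in KO tumor and 1216, 1266 and 972 in WT tumor, against 2332, 1954 and 2099 in KO TDLN and 1963, 1912 and 2162 in WT TDLN. It fell by 0.95 in KO and 0.80 in WT on the log2 scale (limma adjusted p = 0.000946 and 0.00315). Pprc1, a coactivator of NRF1, rose by 1.15 in KO (adjusted p = 0.0124), and Tfb1m, a mitochondrial rRNA methyltransferase, fell by 1.51 in WT (adjusted p = 0.00473).

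Of 12 carriers and channels, 1 rose and 3 fell in each genotype. Slc25a5, an ADP/ATP carrier, fell by 1.14 in KO and 0.81 in WT on the log2 scale (limma adjusted p = 0.00249 and 0.0174), and Slc25a3, the phosphate carrier, rose by 0.57 and 0.40 (adjusted p = 0.0057 and 0.0371). Of 26 genes of protein import, 1 rose and 4 fell in KO and none rose and 3 fell in WT. Timm50, of the inner-membrane translocase, fell by 1.00 and 1.29 (limma adjusted p = 0.0189 and 0.00571).

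The comparison of KO with WT asks whether loss of TrIP changed these genes. None of the 92 passed the threshold in either tissue, where 0% of the 16065 genes tested passed (limma). At an unadjusted p under 0.05, no member stood out in tumor or TDLN, beside 1004 and 123 of all genes. The median log2 difference was -0.01 in tumor and 0.10 in TDLN, beside 0.02 and 0.00 over all genes. In TDLN 47 of the 51 accessory subunits were above 0, and the median over the 92 genes was -0.02 without WT TDLN replicate 3. Among the genes of smallest p in tumor were Atp5b (0.26, 95% interval -0.04 to 0.57), Ndufaf1 (-0.47, -1.02 to 0.08), Ndufa9 (-0.30, -0.68 to 0.08) and Ndufa13 (-0.22, -0.51 to 0.06), with adjusted p between 0.798 and 0.806. The 5 in TDLN were Ndufb4 (0.30), Ndufb11 (0.24), Ndufv3 (0.26), Ndufaf5 (-0.39) and Ndufa2 (0.21), each with an adjusted p of 1.

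**Figure D5:**
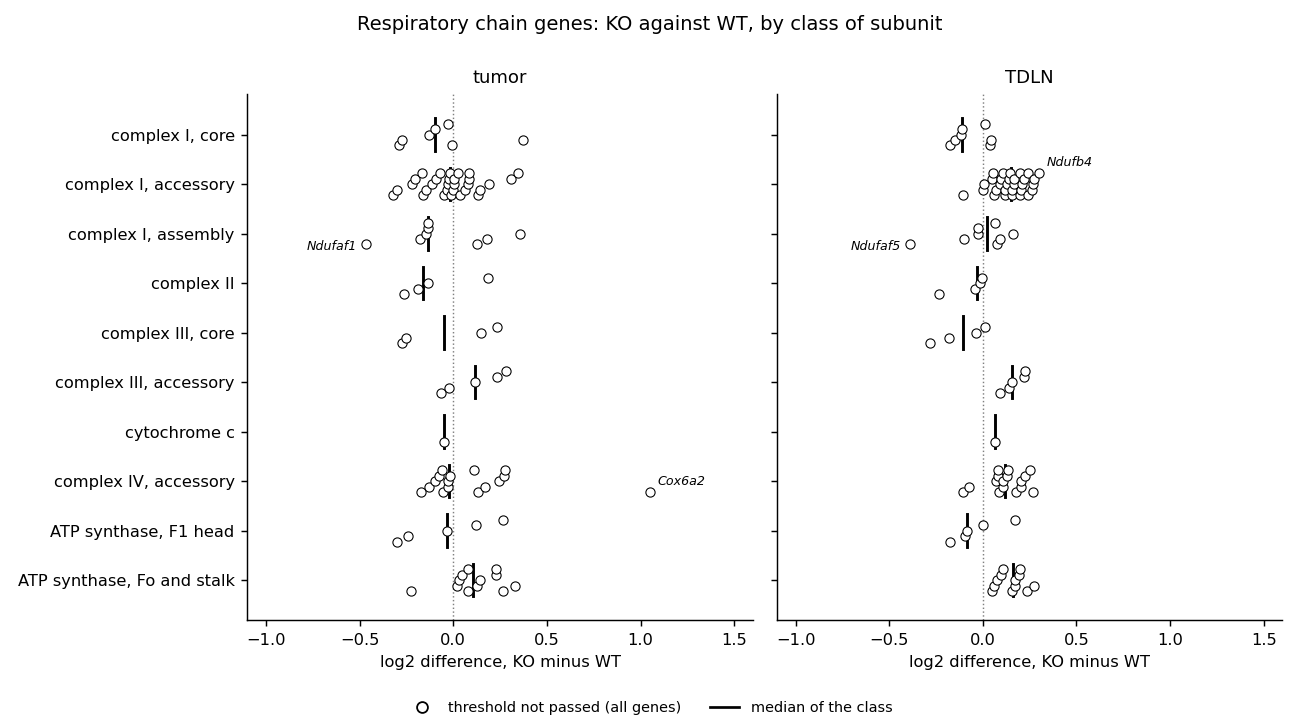
Log2 difference between KO and WT (x axis) of the 92 tested genes, by class of subunit (y axis), in tumor (left) and TDLN (right). No gene passed the adjusted threshold, and bars mark class medians. Cox6a2 lies farthest right, at 1.05 in tumor, and Ndufaf1 farthest left, at -0.47 in tumor.

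Whether the genotype difference itself differed by site (its tumor value less its TDLN value) was tested as an interaction. None of the 92 genes passed (limma, smallest adjusted p = 1.00), where 0% of the 16065 genes tested passed, and at an unadjusted p under 0.05 there was 1 member, Atp5b, beside 464 of all genes. The median interaction was -0.11, beside 0.01 over all genes. Atp5b stood at 0.44 (95% interval 0.0028 to 0.87, unadjusted p = 0.0488, limma). Ndufb11 (-0.40), Ndufa13 (-0.35) and Ndufb7 (-0.30) were among the next. For Cox6a2 the interaction was 0.94 with a 95% interval from -1.19 to 3.07, so its call in KO and not in WT is not shown to be a difference between the genotypes.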

How the data were processed

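The values are normalized counts (a signal, not whole reads) that the authors deposited as 1 table for 12 libraries, exported from Partek per the file headers. The builds GRCm38 and GRCm39 are named per the submitters' processing notes without their roles. No source used here names the aligner or counter. Between 87.1% and 89.6% of values under 50 reads were whole multiples of 1 read within 0.01 reads, so no count model was used. Libraries were polyA-selected and stranded, per the labels' protocols.

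The filter kept genes averaging 1 CPM (24.9 normalized counts) or more, and 1 CPM was added before taking log2. R 4.3.3 and limma 3.58.1 fitted 1 mean for each of the 4 groups with an intensity trend (8 residual degrees of freedom, 4.47 prior). All tests are two-sided and adjusted by Benjamini and Hochberg over 16065 genes per comparison. Only the comparison of tumor with TDLN in KO was tried on simulated data, with genes raised in KO tumor. Decreases and the other comparisons were not tried in this way. Fold changes on this scale understate low genes. Descriptions used Python 3.11.15 with pandas 2.3.3, numpy 2.4.6, scipy 1.17.1 and matplotlib 3.10.9. Transcript lengths are medians over protein-coding transcripts in the basic set of the GENCODE annotation of GRCm38 (94 of 95 genes), and promoters are those of RefSeq on GRCm38.p6. Atp5a1 and Ndufa2 are given without sequence.

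The genes and lists were chosen with earlier results of these data known. Role classes, length ranges and class balances were set after values were seen. Named are, per complex and direction, up to 4 called genes of largest difference whose groups do not overlap, the 5 of smallest p in comparisons of genotype, fixed isoform sets, Sdha to Sdhd, Cycs, Cyc1, the 3 highest genes, up to 2 called genes per list. Genes named beyond this rule were chosen after their values were seen. The values of 1 gene that the rule names are not reported here. Replicate numbers recur between tissues, but the labels do not tie them to a shared mouse, so the fit has no block. Not every same-numbered pair deviated together, which does not decide whether libraries pair.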

Additional observations from a re-analysis of the deposited data

How the results depend on the processing

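The 43 called differences between tissues were recomputed under 22 settings: 12 that leave out a library and 10 others. All 945 recomputed values kept their sign and 762 kept their call. Members called in KO numbered 38 with array weights, 24 of them lower, and 18 were lower with values rescaled to column totals. With array weights, 15.2% of the members were higher and 26.1% lower in KO, beside 24.4% and 19.8% of all genes. With rescaled values 19.6% were lower, beside 15.0%. In WT the members called numbered 6 with only the groups compared (3 higher, 3 lower) and 13 without an intensity trend (6 higher). With only the groups compared, 3.3% were called in each direction, beside 11.5% of all genes higher and 6.5% lower. Without a trend 6.5% were higher and 7.6% lower, beside 15.2% and 10.3%. Without a filter, 7.4% of the members and 8.9% of all genes were higher in WT. Higher calls in WT were 6 with rescaled values, 8 with quantile normalization and 7 without a filter, and lower calls 18 with rescaled values and 14 with quantile normalization, where the median over the members was -0.154 with rescaled values. The cause was not tested. Leaving out 1 library gave 8 to 30 calls in KO (2 to 13 higher, 4 to 18 lower) and 7 to 32 in WT (2 to 15 higher, 4 to 17 lower). Of all genes, 12.6% to 19.7% were then higher and 6.4% to 15.0% lower in KO. In WT 11.5% to 18.1% of all genes were higher and 6.7% to 13.3% lower. The members then had a median in WT of -0.118 to 0.084 and a median of KO against WT in TDLN of -0.021 to 0.182. No member was called between genotypes or for the interaction under any setting.

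Replicate numbers were not taken to pair the libraries, since the labels do not tie them to a shared mouse. Same-numbered tumor and TDLN libraries had correlated deviations of -0.02, 0.04 and 0.00 in KO and 0.01, 0.20 and -0.04 in WT, with 1 of 6 above 0.1. Pairs with different numbers ranged from -0.06 to 0.06 in KO and from -0.18 to 0.18 in WT, so these correlations do not decide whether libraries pair. With a replicate block, 12 members were higher and 11 lower in KO, 15 and 8 in WT, and 0 were called between genotypes. The block ended the calls of Ndufs8 in KO (limma adjusted p = 0.0649) and of Sdhb (0.0636) and Ndufaf6 (0.0546) in WT. At this depth Cox6a2 in TDLN, Cox4i2 and Ndufa4l2 rest on few reads. The filter at a mean of 5 CPM left Cox6a2 out.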
